A study of Mus musculus with 2 samples.

Results

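Among the 4788 protein-coding genes listed as higher in FMRP precipitates of mouse testis, 136 were short genes, spanning less than 5000 bp of the genome from start to end. They were chosen by that span and by name: 40 further short genes with predicted (Gm) or RIKEN (Rik) names were left out, and 4612 listed genes spanned 5000 bp or more. FMRP RNA immunoprecipitation (RIP) with an anti-FMRP antibody was done on testis lysate of adult wild-type mice, and the recovered RNA was sequenced as 1 library beside 1 library of the starting lysate (input). No IgG library was used here and neither library has a replicate, so every difference below is between these 2 libraries, without a test. The number of animals behind the lysate is not given in the sources used here.

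FMRP is the RNA-binding protein whose loss causes fragile X syndrome, in which enlarged testes accompany the neurological signs. It binds mRNA mostly within coding sequence and holds back translation, and the transcripts best known to associate with it in brain are long. Male germ cells are rich in short genes of an unusual kind: retrocopies, which arose when a spliced mRNA was copied back into the genome, and small genes that are expressed only in meiotic cells and spermatids, whose mRNAs are stored in protein complexes until they are translated. The span counts introns, so a mature transcript can be no longer than its gene's span but can be much shorter.

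Levels are given in CPM, that is, reads corrected for the size of the library, with the input first. The input library held 30849871 reads and the FMRP RIP library 36506932, so that 1 read was worth 0.0324 CPM and 0.0274 CPM. The log2 fold change compares the FMRP RIP with the input after 1 CPM was added to both. The ratio is taken without that addition, and its exact 95% interval (Clopper-Pearson) covers counting error only. Each listed gene had already been selected as higher in the FMRP RIP, so the direction is given by the list and only the size of the difference is described. The listed genes together took 14.2% of the reads in the input but 55.2% in the FMRP RIP, so the scale on which all ratios rest depends on the choice of total. In whole tissue, fewer cells of a type and less RNA per cell cannot be told apart.

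Short genes were few in the list. Of the 4296 protein-coding genes of the RefSeq annotation that span under 5000 bp, 137 were listed (3.19%), against 8.16% of those spanning 5000 to under 10000 bp, 15.6% from 10000 to under 20000 bp, 28.6% from 20000 to under 50000 bp and 47.0% at 50000 bp or more. Leaving out olfactory, vomeronasal and trace amine receptor genes, which are short and numerous, the short class had 136 of 3025 genes (4.50%). Below 1000 bp, 2 of 1315 genes were listed (0.152%). Genes with too few reads to be called in testis were counted in these totals, and their number was not tested. The rule that defines the group used span, so these shares describe how rare its members are.

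Among listed genes, the medians of short and longer genes lay close together. The short genes' median log2 fold change was 1.26, with quartiles at 0.85 and 1.87 and a range from 0.43 to 4.48, beside a median of 1.35 over all listed genes and 1.36 over the longer ones. A log2 fold change above 1 was found for 91 of the 136 (66.9%), against 70.1% of all listed genes. A fold change of at least 1.5 was found for 131 of them, where the background was 97.3%, and 29 exceeded a log2 fold change of 2 (21.3%, background 25%). The median level in the input was 10.9 CPM, and that after precipitation was 29.2 CPM, near the 9.27 and 30.6 CPM of all listed genes. Together the 136 genes took up 0.595% of all reads before precipitation and 2.32% after it.

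**Figure D1:**
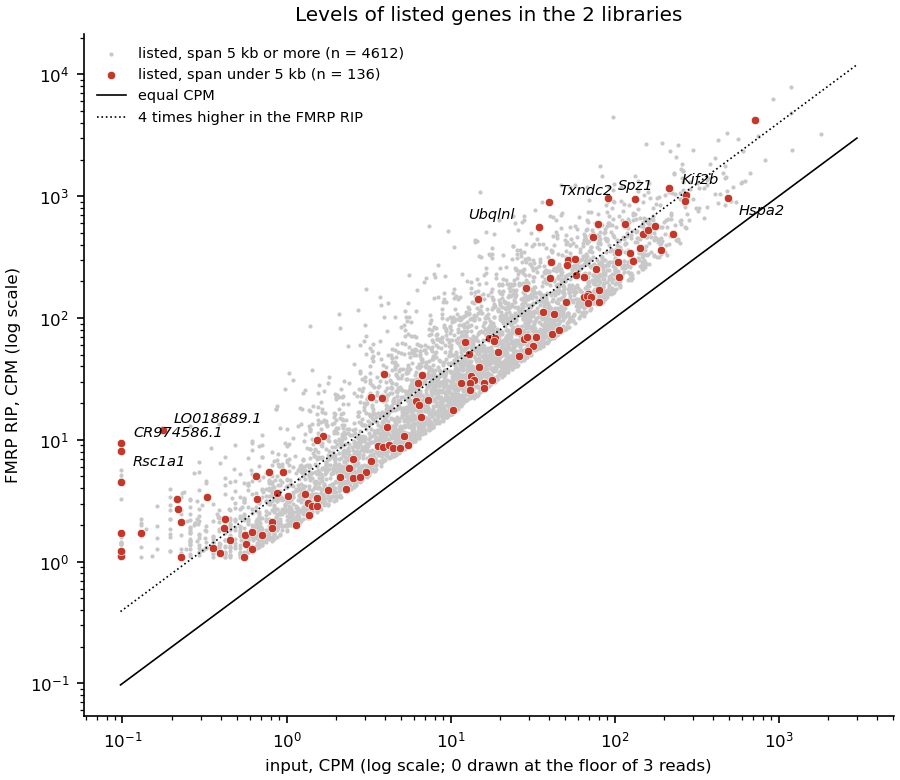
Level of each listed gene in the input (horizontal, CPM, log scale) and in the FMRP RIP (vertical, CPM, log scale), with the 136 short genes in red over the 4612 longer ones in grey; genes listed at 0 in the input are drawn at the floor of 3 reads (0.0972 CPM). The short genes lie among the others without reaching the highest levels of the longer ones, and *Txndc2*, *Ubqlnl* and *Spz1* lie well above the line of a 4-fold difference. No point lies below the line of equal CPM, since only genes called higher are listed.

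Within the short genes there was no steady trend with span. The 38 genes under 2000 bp had a median log2 fold change of 1.36, the 25 from 2000 to under 3000 bp had 1.69, the 29 from 3000 to under 4000 bp had 1.19, and the 44 from 4000 to under 5000 bp had 1.14. Above the limit, the 252 listed genes from 5000 to under 10000 bp had the lowest median, 1.13, and it was 1.21, 1.26, 1.51 and 1.52 in the next 4 classes up to 100000 bp and more. Across genes, which are not independent replicates, the rank correlation of span with log2 fold change was -0.11 over the 136 members and 0.16 over the longer genes. Genes just inside the limit were *Spata31d1c* (4947 bp, log2 fold change 3.20), *Arsa* (4950 bp, 1.03) and *Cetn4* (4960 bp, 1.11). Just outside lay *Zbed6* (5007 bp, 2.54) and *Tex13b*, which has 2 rows of 5127 bp with identical values (0.81).

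**Figure D2:**
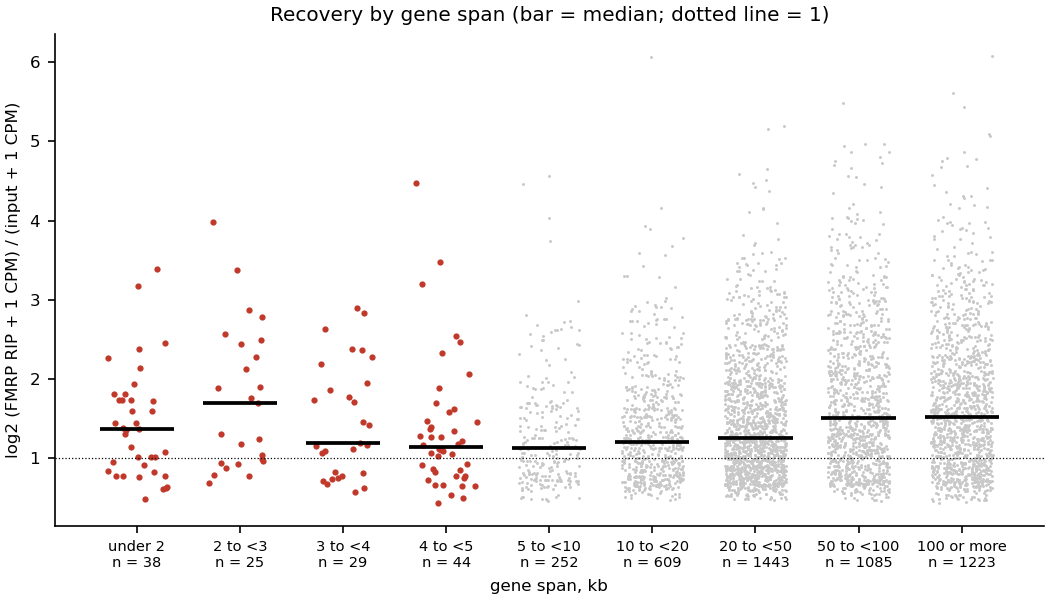
Log2 fold change of the FMRP RIP over the input with 1 CPM added to both (vertical) for each listed gene, by class of gene span in kb (horizontal); points are genes, short genes in red, and the black bar is the median of the class. The median falls from 1.69 at 2 to under 3 kb to 1.13 at 5 to under 10 kb and reaches 1.52 at 100 kb or more, and each class overlaps all the others.

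The comparison with longer genes depended on the level. At 1 to under 10 CPM in the input, the 36 short genes had a median log2 fold change of 0.97, against 1.30 for the 1876 longer genes. At 10 to under 100 CPM the medians were 1.37 for 51 short genes and 1.55 for 1952 longer ones. At 100 CPM or more the order was the other way, with 1.70 for 18 short genes and 1.57 for 280 longer ones. Below 1 CPM, 31 short genes had 1.18 and 504 longer genes 0.98, where the added 1 CPM outweighs the input value and 5 of the 31 were listed at 0 in the input. No difference between these medians was tested.

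*Txndc2* had the highest log2 fold change of the short genes. It encodes a thioredoxin of the fibrous sheath of the sperm tail and spans 4662 bp (chr17:65637507-65642168, minus strand, GRCm38). It measured 39.5 CPM before and 902 CPM after precipitation, which gives a ratio of 22.8 (95% interval from 21.5 to 24.2) and a log2 fold change of 4.48, the 33rd highest of all 4788 genes. Only 1 other short gene was among the first 100. This was *Ubqlnl* (chr7:104148259-104150556, minus strand), a ubiquilin-like gene, with 34.5 and 557 CPM and a ratio of 16.2 (15.2 to 17.2). *Spz1*, a leucine zipper transcription factor of the testis (chr13:92574636-92576172, minus strand), had 91.0 and 961 CPM, a ratio of 10.6 (10.2 to 10.97), within a gene of 1537 bp. Start regions of *Txndc2* and *Spz1*, from 250 bases before to 50 bases after a RefSeq start, are shown in lower case because these are 2 of the 4 highest members. The first is chr17:65642155-65642454, which is 1 of 2 start regions given for *Txndc2*. The second is chr13:92576183-92576482. Both are on the minus strand of GRCm38.p6 and printed 5′ to 3′.
Txndc2: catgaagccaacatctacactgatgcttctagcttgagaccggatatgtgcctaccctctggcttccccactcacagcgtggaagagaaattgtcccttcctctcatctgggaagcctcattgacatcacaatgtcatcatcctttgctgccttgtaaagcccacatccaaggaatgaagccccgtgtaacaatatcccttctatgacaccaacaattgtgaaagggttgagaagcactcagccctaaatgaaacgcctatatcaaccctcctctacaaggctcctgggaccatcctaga
Spz1: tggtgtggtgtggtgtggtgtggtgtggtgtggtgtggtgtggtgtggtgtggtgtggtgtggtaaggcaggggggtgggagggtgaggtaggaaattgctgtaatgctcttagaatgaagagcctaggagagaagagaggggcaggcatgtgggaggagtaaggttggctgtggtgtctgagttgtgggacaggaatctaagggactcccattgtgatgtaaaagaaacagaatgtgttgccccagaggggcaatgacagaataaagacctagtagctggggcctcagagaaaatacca

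The remaining genes among the 10 highest, taken at 100 reads or more, came from germ cell genes and from loci with few input reads. *Spata31d1c*, of a spermatogenesis-associated family, had 14.7 and 144 CPM (ratio 9.76, 8.87 to 10.8). *Pabpc6*, a poly(A)-binding protein copy, had 79.3 and 594 CPM (7.50, 7.19 to 7.82). *Tex13c1*, on the X chromosome, had 3.92 and 35.0 CPM (8.91, 7.39 to 10.8). *Actl11*, a testis actin-like protein, had 134 and 957 CPM (7.16, 6.94 to 7.40). These 4 intervals all lie above a ratio of 6. The remaining 3 rest on an input at or near 0. *LO018689.1*, on an unplaced scaffold, had 0.18 and 12.1 CPM, and its ratio of 68.8 has an interval of 31.8 to 231. *CR974586.1*, also on a scaffold, went from 0 in the input to 9.40 CPM, at least 96.7-fold higher when the input is set to the floor of 3 reads. *Rsc1a1*, a regulator of solute carriers, was at 0 and 8.03 CPM, at least 82.6-fold higher, and it lies wholly within *Ddi2* on the same strand, which is itself listed with 11.6 and 52.3 CPM (ratio 4.50). None of these 3 had whole numbers of reads in both libraries, and how their reads were divided with other loci was not tested.

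The other 3 short genes at 0 in the input were *Hist2h2aa2*, an H2A histone gene of 528 bp with 4.49 CPM in the FMRP RIP (at least 46.2-fold), *AC132444.6*, on a scaffold, with 1.72 CPM (at least 17.7-fold), and *Btbd35f26* with 1.11 CPM (at least 11.4-fold). All 5 genes at 0 had fractional reads in the FMRP RIP. With such genes set to the floor and no added CPM, the median log2 ratio was 1.56 for the short genes and 1.61 for all listed genes.

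The 5 lowest log2 fold changes at 100 reads or more were small, though each interval of the ratio lay above 1. *Zfp296*, a zinc finger gene, had 2.30 and 3.92 CPM (ratio 1.70, 1.27 to 2.3), and *Hjv*, the iron regulator hemojuvelin, had 2.79 and 4.93 CPM (1.77, 1.36 to 2.31). *Tlnrd1* (1.13 and 2.0 CPM), *Zrsr1*, a splicing factor gene inside *Commd1* (1.36 and 2.41 CPM), and *Btbd35f2* (1.53 and 2.88 CPM) completed the 5. At these levels, below 3 CPM in the input, the added 1 CPM pulls the log2 fold change towards 0, to between 0.49 and 0.65.

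**Figure D3:**
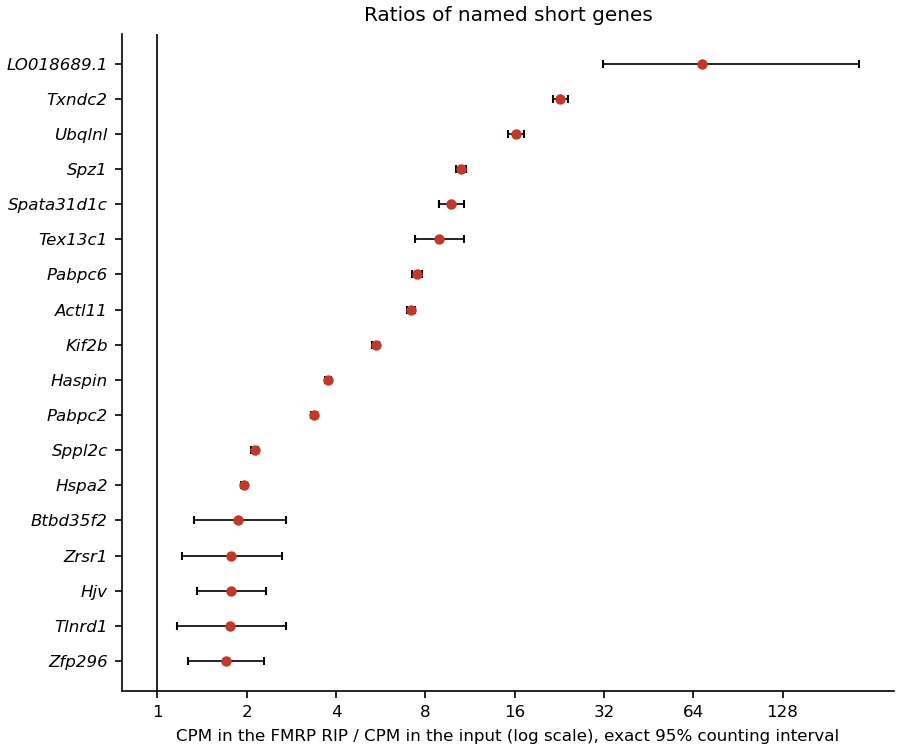
Ratio of the CPM in the FMRP RIP to that in the input (horizontal, log scale) for short genes named for the highest or lowest log2 fold changes or the most reads; points are ratios and bars exact 95% counting intervals, with genes at 0 in the input left out. *Txndc2* at 22.8 and *Ubqlnl* at 16.2 have narrow intervals, that of *LO018689.1* runs from 31.8 to 231, and the lowest genes lie between 1.70 and 1.88.

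*Kif2b*, *Haspin*, *Spz1* and *Hspa2* were among the 5 short genes with the most reads in the FMRP RIP. *Kif2b*, a kinesin that takes microtubules apart at the spindle, had 215 and 1168 CPM (5.44, 5.30 to 5.58). *Haspin*, the kinase that marks histone H3 at mitotic centromeres, lies within *Itgae* and had 271 and 1018 CPM (3.75, 3.66 to 3.84). *Hspa2*, the testis member of the HSP70 chaperones, had 490 and 958 CPM (1.95, 1.92 to 1.99), with a log2 fold change of 0.97. *Pabpc2* (268 and 906 CPM, 3.38) and *Sppl2c*, a spermatid intramembrane protease (228 and 485 CPM, 2.13), were also among the 5 with the most input reads.

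By symbol and known role, 36 members were assigned to spermatogenesis, sperm structure or germ cells, a choice made after the values were seen and not applied to the longer genes. Their median log2 fold change was 1.46, beside 1.26 over the 136 and 1.35 over all listed genes. Of the 36, 28 exceeded 1 (77.8%, against 70.1% of all listed genes) and all were at 1.5-fold or more (background 97.3%). The median input level of the 36 was 44.4 CPM, above the 9.27 CPM of all listed genes. Among all 2015 listed genes at 10 to under 100 CPM in the input, 77.6% exceeded 1 and all reached 1.5-fold. The share of the 36 was thus near that of listed genes at such levels. Levels of the 36 ran from 0.23 to 490 CPM in the input, and after precipitation from 1.10 to 1018 CPM. Sperm tail proteins were among the 36. Besides *Txndc2*, the fibrous sheath protein gene *Fscb* had 74.1 and 465 CPM (ratio 6.28, 6.01 to 6.56), and *Cabs1*, a calcium-binding protein of spermatids, had 52.1 and 298 CPM (5.72, 5.43 to 6.04). Of the symbols listed for flagellar and ciliary proteins, 7 were members and 5 exceeded 1, against 155 of the 188 listed genes with such symbols. The medians were 1.59 and 1.62. All 7 had *Ccdc* or *Tex* symbols, and a place in flagella or cilia was not checked for each. Among the 7, the highest FMRP RIP levels were those of *Ccdc54* (40.2 and 214 CPM), *Tex44* (36.4 and 112 CPM), *Ccdc185* (42.7 and 107 CPM) and *Ccdc87* (41.6 and 74.2 CPM, log2 fold change 0.82).

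A symbol list was made for actin-like proteins and proteins of the perinuclear theca or calyx, the cytoskeletal capsule of the sperm head. It had 4 short members, all above 1, as were all 9 listed genes of that list. The medians were 1.83 and 1.73. Membership rested on the symbol, so a member need not be a protein of that kind. The 4 were *Actl11*, *Spem2* (148 and 494 CPM, ratio 3.34), *Ccin*, which encodes calicin (143 and 376 CPM, 2.62), and *Ccer1* (58.2 and 225 CPM, 3.86). Genes named for spermatogenesis or testis expression had 7 members, 6 above 1, against 49 of the 59 listed. The medians were 2.26 and 1.81. The member not above 1 was *Fam71a* with 69.2 and 132 CPM and a log2 fold change of 0.93. The symbol list of proteases had 5 members, 3 above 1, against 21 of the 33 listed. The medians were 1.19 and 1.10. It did not hold the intramembrane protease *Sppl2c*, whose log2 fold change was 1.08. Of the 5, *Prss39*, a sperm serine protease, had 105 and 290 CPM, *Adam1b* 64.8 and 149 CPM, *Adam20* 26.3 and 48.6 CPM and *Adam6b* 46.1 and 79.4 CPM. The ADAM genes had fractional reads, and the longer *Adam1a* was listed with 160 and 337 CPM (2.10).

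Markers of cell types gave a limited check, since the list holds only genes called higher. Of 53 marker genes of testis cells, 2 were listed, *Sycp1* (10.5 and 23.8 CPM) and the short gene *Hspa2*. Both are among the 6 markers taken for spermatocytes, of which *Sycp3*, *Spo11* and *Meiob* were not listed. Of the 23 markers that span under 5000 bp, *Hspa2* was the only 1 listed, where 3.19% of all annotated genes of that span were. *Prm1*, *Prm2*, *Tnp1* and *Tnp2*, short genes for the proteins that pack sperm DNA, were not among the listed genes, nor were *Tssk1*, *Tssk2*, *Actl7b* and *Pgk2*. No marker of Sertoli, Leydig, peritubular, endothelial or red blood cells or of macrophages was listed. The level of genes that were not listed was not analysed here.

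Short copies of longer genes formed a further group. By symbol, 20 members were retrocopies or short paralogues of another gene, again chosen with the values known. Their median log2 fold change was 1.71, and 14 of 20 exceeded 1 (70.0%), the share found for all listed genes (70.1%). They belong to 17 relatives, of which 5 were listed, so 13 of the copies stood in the list without the relative named for them. In the annotation, the share listed was 15.6% at 10000 to under 20000 bp and 28.6% at 20000 to under 50000 bp. It was 8.16% at 5000 to under 10000 bp and 47.0% at 50000 bp or more. Whether the relatives depart from those shares was not tested. Where both copy and relative were listed, neither had the higher ratio throughout. *Pabpc6* (7.50) and *Pabpc2* (3.38) both lay below *Pabpc1*, the widely expressed poly(A)-binding protein, which had 243 and 2624 CPM and a ratio of 10.8 (10.6 to 11.1). *Kif2b* at 5.44 lay below *Kif2a*, with 19.7 and 189 CPM and a ratio of 9.59 (8.83 to 10.4), while *Kif2c* of the same family, which was added after its values were seen, had 3.47.

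The aldolase copies differed in the size of their ratios. *Aldoart1* and *Aldoart2* encode sperm forms of the glycolytic enzyme aldolase. *Aldoart1* had 28.7 and 175 CPM, a ratio of 6.11 (5.69 to 6.56), and *Aldoart2* had 192 and 364 CPM, a ratio of 1.89 (1.84 to 1.95). The parent *Aldoa* had 6.19 and 10.9 CPM, 1.76 (1.47 to 2.10), so its interval overlapped that of *Aldoart2* and lay below that of *Aldoart1*. All of these aldolase copies had fractional reads, which leaves the division of reads among them uncertain. *Eno1b*, an enolase copy, had 15.9 and 26.7 CPM (1.68, 1.51 to 1.88), also with fractional reads.

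*Papolb*, the testis poly(A) polymerase, had 116 and 588 CPM with a ratio of 5.05 (4.87 to 5.23), slightly below *Papola* with 22.5 and 134 CPM and 5.94 (5.49 to 6.45). *Eif3j2* (1.35 and 3.05 CPM, 2.25) and *Eif3j1* (2.70 and 7.31 CPM, 2.71) had overlapping intervals. Among copies with no listed relative, *D1Pas1*, a DEAD-box helicase copy related to *Ddx3x*, had 51.5 and 270 CPM (5.24, 4.97 to 5.53). *G6pd2*, a copy of the glucose-6-phosphate dehydrogenase gene, had 12.9 and 50.6 CPM (3.91, 3.51 to 4.37). *Ube2d2b*, a ubiquitin-conjugating enzyme copy, had 64.8 and 218 CPM (3.36), and *Ftmt*, the mitochondrial ferritin, had 17.8 and 30.9 CPM (1.73).

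**Figure D4:**
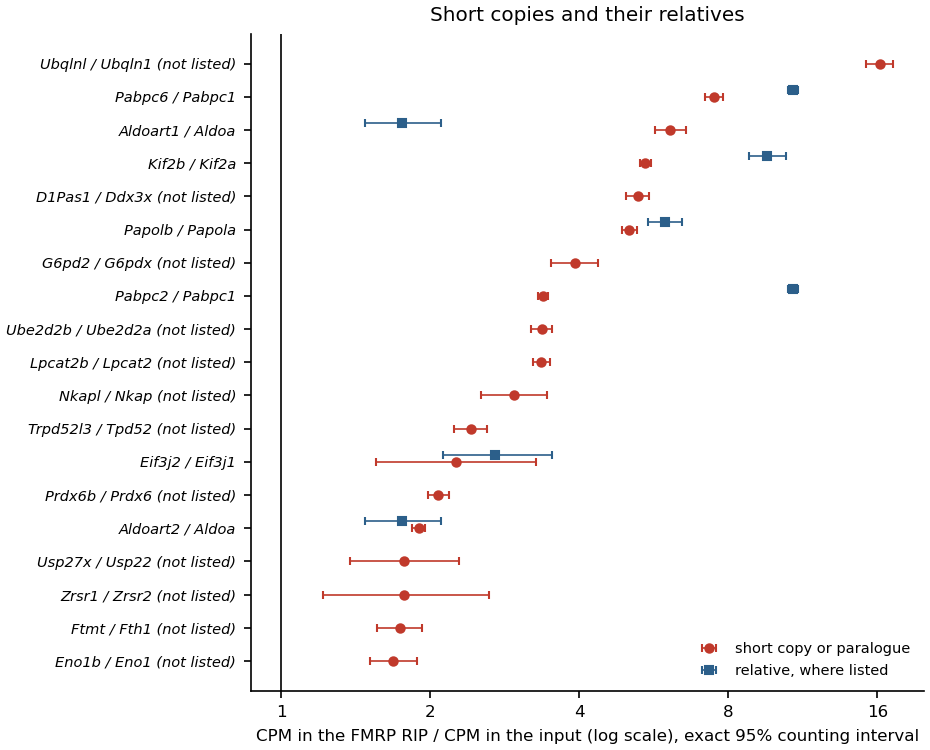
Ratio of the CPM in the FMRP RIP to that in the input (horizontal, log scale) for 19 of the 20 short copies or paralogues (red circles) and, where it was listed, the relative named after the stroke (blue squares), with exact 95% counting intervals. *Pabpc6*, *Pabpc2*, *Kif2b* and *Papolb* lie below their relatives, *Aldoart1* lies above *Aldoa*, and the intervals overlap for *Aldoart2* and *Eif3j2*.

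The *Btbd35f* genes, a family of BTB domain genes in ampliconic clusters on the X chromosome, gave 12 members, of 29 in the annotation. Of all annotated genes spanning under 5000 bp, 3.19% were listed, and 4.50% with sensory receptor genes left out. Whether the family departs from those shares was not tested. Levels of the 12 were low, 0 to 1.66 CPM before and 1.11 to 10.7 CPM after precipitation. Their median log2 fold change was 1.05, with 7 of 12 above 1 (58.3%). Among all 548 listed genes below 1 CPM in the input, 50% exceeded 1, and among all listed genes 70.1%. *Btbd35f11* had the highest level among these genes of 1701 to 1960 bp, 1.66 and 10.7 CPM (ratio 6.48, 4.84 to 8.88), and *Btbd35f21* followed with 0.96 and 5.45 CPM (5.69, 3.81 to 8.53). *Btbd35f10* had 0.22 and 3.27 CPM (15.2, 6.76 to 36.5). All 12 had fractional reads, and how reads were divided among near-identical copies is not given in the sources used here, so no copy can be ranked with certainty. The locus named *CT867961.1* (0.42 and 1.87 CPM) is *Btbd35f19* in the annotation and was counted outside the 12. With it, 13 genes of the family were members. The summed share of reads of the 12 was 0.00097% before and 0.0040% after precipitation, so they bear on counts of genes and hardly on reads. Of the 15 short genes on the X chromosome, these 12 and *CT867961.1* were 13.

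**Figure D5:**
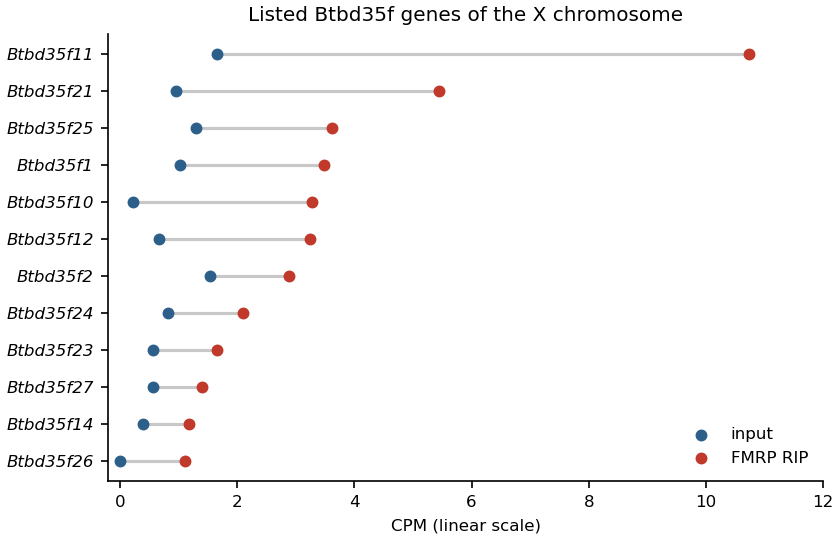
CPM (horizontal, linear scale) of the 12 listed *Btbd35f* genes in the input (blue) and in the FMRP RIP (red), joined by a line for each gene. The FMRP RIP levels run from 1.11 CPM for *Btbd35f26* to 10.7 CPM for *Btbd35f11*, and no input level exceeds 1.66 CPM.

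Chaperones and ubiquitin genes were present in both short and longer forms. Of 5 short heat shock and co-chaperone genes, 4 exceeded 1, against 27 of the 32 listed genes of that list. The medians were 1.71 and 1.32. *Bag5*, a nucleotide exchange factor for HSP70, had 161 and 526 CPM (3.28), *Hspb7*, a small heat shock protein, had 6.29 and 29.5 CPM (4.69), and *Dnajb7*, a J-domain co-chaperone, had 18.8 and 68.5 CPM (3.65). *Hspa2* was the 1 below. The ubiquitin list had 17 members, of which 12 were the *Btbd35f* genes. Of the 17, 10 exceeded 1, against 106 of the 153 listed, and the medians were 1.08 and 1.30.

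The symbol list of RNA-binding proteins of translation, decay and processing had 6 short members. It did not hold *Mex3b*, *Papolb* or *D1Pas1*, whose log2 fold changes were 1.28, 2.33 and 2.37. Of the 6, the 2 poly(A)-binding copies exceeded 1, against 60 of the 81 listed. The medians were 0.89 and 1.5. *Tob1*, which brings the deadenylase complex to mRNAs, had 15.9 and 29.0 CPM (1.82, 1.63 to 2.03), *Rbm31y*, on the Y chromosome, had 4.21 and 9.11 CPM (2.16) with fractional reads, and *Nanos1*, a translational repressor of germ cells, had 0.23 and 1.10 CPM. The symbol list of zinc finger, homeobox and some other transcription factors had 4 short members. It did not hold *Spz1*, *Maz* or *Snai2*, whose log2 fold changes were 3.39, 1.11 and 0.75, so it is incomplete for such factors. Of the 4, 1 exceeded 1, against 211 of the 292 listed, and the medians were 0.87 and 1.41. *Nr1h2*, the oxysterol receptor LXR beta, had 13.2 and 25.6 CPM (1.94), *Zfp830* 4.44 and 8.63 CPM (1.94) and *Foxh1*, a partner of SMAD proteins, 2.40 and 5.89 CPM (2.46).

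Some lists of short genes had no member. None of the 73 cytosolic ribosomal protein genes, the 32 nuclear-encoded oxidative phosphorylation subunit genes and the 21 protocadherin genes that span under 5000 bp in the annotation was among the 136, nor were any of the 26 immediate-early symbols of that span. Of all short genes of the annotation 3.19% were listed, and 4.50% with the sensory receptor genes left out, so lists of these sizes would hold few. Whether the zeros fall below that share was not tested. *Arc*, which was not on that list and is a neuronal activity gene long studied as an FMRP-associated mRNA, was a member, with 57.6 and 303 CPM and a ratio of 5.26 (5.0 to 5.54). It was named after its values were seen. Of 1329 short genes with the symbols of the receptor list, which did not hold *Tas1r3*, *Olfr1393* (0.45 and 1.49 CPM) and *Gpr15* (0.62 and 1.26 CPM) were members, and of 109 histone and sperm chromatin genes, *Hist2h2aa2*. The channel *Kcna7* had 0.13 and 1.73 CPM, on 4 input reads (13.3, 4.95 to 50.4), and *Tmem235* had 0.55 and 1.10 CPM. Some other lists had 1 or 2 members. *Ppp1r15a*, the stress-induced phosphatase subunit that acts on eIF2, had 2.53 and 6.93 CPM (2.74), *Cdca3*, a gene of mitotic entry, had 69.0 and 156 CPM (2.26), and *Cdkn2aip* 29.2 and 69.2 CPM (2.37). The symbol list of leucine-rich repeat, ankyrin and tetratricopeptide proteins had 4 members, and 2 exceeded 1, against 113 of the 157 listed. The medians were 0.995 and 1.34. Membership rested on the symbol, so the *Fam* genes need not be repeat proteins. The 4 were *Fam243* (41.2 and 289 CPM, 7.03), *Fam166a* (80.3 and 169 CPM), *Fam71a* and *Ankrd63* (1.52 and 3.31 CPM).

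The 68 members outside the copies, the germ cell genes and the *Btbd35f* family had a median log2 fold change of 1.13, with quartiles at 0.80 and 1.64. Of the 68, 42 exceeded 1 (61.8%, against 70.1% of all listed genes). The following examples were picked after their values were seen. *Muc1*, a membrane mucin of epithelia, had 3.27 and 22.5 CPM (ratio 6.89, 5.59 to 8.55). *Gps2*, a subunit of a nuclear corepressor complex, had 12.4 and 63.96 CPM (5.18, 4.65 to 5.79), and *Mex3b*, an RNA-binding protein with KH domains, 11.5 and 29.4 CPM (2.56, 2.27 to 2.89). Lower in the order were *Cenpb*, which binds centromeric repeats (5.19 and 10.7 CPM, 2.07), *Polr3d*, a subunit of RNA polymerase III (3.27 and 6.71 CPM, 2.05), and *Snai2*, a repressor of epithelial genes, with 11 input reads (0.36 and 1.29 CPM, 3.61, 1.85 to 7.72).

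*mt-Co3*, a subunit of cytochrome c oxidase, was the 1 gene of the mitochondrial genome in the list. It had 19.6 and 52.1 CPM, a ratio of 2.67 (2.43 to 2.92), with fractional reads.

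Other features were shared by parts of the group. Values that were not whole numbers of reads, within 0.005 of a read, were found for 38 members (27.9%) and for 26.8% of all listed genes. They comprised all 12 *Btbd35f* genes, 6 of the 20 copies, 6 of the 36 germ cell genes and 14 of the remaining 68. The 98 members with whole reads had the same median log2 fold change, 1.26. Another gene of the annotation overlapped 32 members on either strand, 24 of them by a protein-coding gene. Their median was 1.18, against 1.27 for the other 104. A further listed row overlapped 6 members. *Rsc1a1* was given above, and *St6galnac2*, a sialyltransferase, has 2 rows on 1 strand, the short one with 68.1 and 153 CPM (2.24) inside a longer one with 87.8 and 300.2 CPM (3.42). *Ube2d2b* lies in *Evi5* on the opposite strand, with ratios of 3.36 and 3.31. *Fndc9* lies in *Cyfip2*, the gene of an FMRP-interacting protein, with 2 input reads and a ratio of 19.0 (4.97 to 162) beside 2.01. *Tas1r3*, a taste receptor subunit, overlaps *Dvl1* (7.86 and 1.89), and *Fancd2os* overlaps *Fancd2* (3.08 and 2.08). Whether the counting used strand is not given in the sources used here, so reads of such pairs cannot be told apart.

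Start regions could be matched for 93 of the 136 members (68.4%), under the 80% needed, so a comparison of base composition or motifs between the group and other genes is void. One motif search is given as a description. The cAMP response element TGACGTCA, the palindromic site bound by the CREB and CREM factors, of which CREM drives many genes of spermatids, was found in the start regions of *Ccin*, *Lmf2* and *Ppp1r15a*, and in 1.79% of the 32851 start regions of the annotation. The site reads the same on both strands. The regions of *Ccin* (chr4:43983254-43983553, plus strand) and *Ppp1r15a* (chr7:45526219-45526518, minus strand) are printed 5′ to 3′ with the element in capitals, since 1 is a sperm head gene and the other a widely expressed stress gene. The element begins at base 201 of the first and base 239 of the second. A match is a description of these letters only.
Ccin: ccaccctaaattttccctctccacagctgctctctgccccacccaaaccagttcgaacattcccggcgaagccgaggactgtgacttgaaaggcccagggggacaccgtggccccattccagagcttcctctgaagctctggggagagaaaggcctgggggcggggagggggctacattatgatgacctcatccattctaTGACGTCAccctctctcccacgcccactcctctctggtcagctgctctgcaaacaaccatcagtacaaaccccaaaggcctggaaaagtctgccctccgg
Ppp1r15a: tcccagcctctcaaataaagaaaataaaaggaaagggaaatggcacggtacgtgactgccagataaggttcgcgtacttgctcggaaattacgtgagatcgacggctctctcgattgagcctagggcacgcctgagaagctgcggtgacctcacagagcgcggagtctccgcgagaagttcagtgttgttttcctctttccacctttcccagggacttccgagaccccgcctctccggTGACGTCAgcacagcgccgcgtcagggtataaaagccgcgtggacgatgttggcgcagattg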

How the data were processed

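The input library and the FMRP RIP library, 1 each from testis of adult wild-type mice, were grouped by their labels. The authors deposited 1 table of CPM values per gene and library, normalised to library size, and it holds only protein-coding genes that they called higher in the FMRP RIP. The submitters' processing notes name STAR and GRCm38 (mm10), the paper names edgeR for the calls, and the counting tool is not given in the sources used here. The authors' own fold change, p-value and call columns were not used.

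Library totals were recovered from the step of the CPM values, and 78.4% of input and 78.8% of FMRP RIP values were whole reads within 0.005, so no count test was run. With 1 library per group no test was possible. PCR copies of a molecule cannot be separated, so intervals cover counting error only, as do floors of 3 reads (0.0972 CPM for the input, 0.0822 CPM for the FMRP RIP). The members and lists were chosen with earlier results of these data known. Named genes were the 10 highest and 5 lowest log2 fold changes at 100 reads or more, the 5 highest levels in each library, genes at 0 in the input, up to 4 genes of each of 19 symbol lists by FMRP RIP level, and those beside the span limit; others are marked or belong to the copies, the germ cell genes or the overlapping pairs, which were chosen after the values were seen. Genes were matched to RefSeq (GRCm38.p6) by symbol, or else by synonym, at an overlapping position on the same chromosome. This named 130 of the 136 members. The results for 2 of the named genes are not reported here. The functions were tested on simulated libraries. Alternatives were other pseudocounts, minimum levels, span limits and name filters, RefSeq spans, overlapping genes left out, and scaling by the total of all reads that fell on no listed gene. Computations used numpy 2.4.6, scipy 1.17.1 and pandas 2.3.3 under Python 3.11.15, and figures matplotlib 3.10.9.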

Additional observations from a re-analysis of the deposited data

How the results depend on the processing

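Of the 136 short genes, 91 had a log2 fold change above 1 (66.9%). The count was 64 (47.1%, against 51.7% of all listed genes) when 5 CPM was added. With the limit at 4000 bp it was 63 of 92 (68.5%, against 70.1%). Under the smaller pseudocount it was 109 (80.1%, against 79.7%), so that the share was then slightly higher among the short genes. Their median of 1.26 became 0.95 when 5 CPM was added, 1.47 under the smaller pseudocount, 1.49 without one (131 genes above 0 in both libraries) and 2.11 when scaled by reads on no listed gene. That scaling multiplies each FMRP RIP value by 1.92 and puts 135 (99.3%) of the short genes and 99.96% of all listed genes above 1, against 66.9% and 70.1%. The median of the short genes minus that of the other listed genes was -0.10, and between -0.19 and -0.05 under the alternatives, except with the limit at 4000 bp, where it was 0.0042, without the 44 genes of 4000 to under 5000 bp. With predicted and RIKEN names kept, the share of reads on short genes was 0.726% in the input, and 2.70% after precipitation. Leaving out members without whole reads, chosen after seeing the data, gave 66 of 98 above 1.

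No paired analysis was possible because only a single library stands on either side. The count of members without an intron, with its alternatives, and features of coding sequence were not run, since no exon annotation or transcript sequence was used here. At the lowest levels depth sets the limit: 6 members had 3 reads or fewer in the input.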
